A study of Mus musculus and Sus scrofa with 18 samples.

Results

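Serotonin receptors were compared across the striatum of WT mice and of treated and untreated Huntington's disease (HD) knock-in mice. The 9 genes Htr1a, Htr1b, Htr1d, Htr2a, Htr2c, Htr3a, Htr4, Htr6 and Htr7 were followed among the 55357 Ensembl genes of the mouse count table. The family was selected on the measured values of Htr1b, which was picked for its fall in HD mice. The differences of the members from WT are therefore given as descriptions without a test. Treated and untreated mice are compared with one, which for Htr1b reuses the untreated mice and is not independent of the choice.

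RNA-seq was performed on 1 library per mouse, with 3 mice in each of 3 groups. WT mice received AAV9-Ctrl gRNA and no CasRx. Untreated mice were heterozygous HD 140Q-KI mice given AAV9-CasRx with AAV9-Ctrl gRNA, and treated mice were heterozygous HD 140Q-KI mice given AAV9-CasRx with 4 HTT gRNAs, cloned as gRNA1 + 2 and gRNA3 + 4. In these mice exon 1 of human HTT, with a long CAG repeat, stands in 1 of the mouse Htt alleles, and the line was kept by mating heterozygous males with C57BL/6J females. CasRx, an RNA-cutting CRISPR enzyme, was driven by the CAG promoter, which is active in many cell types. The vectors were injected into both striata at 6 months of age and tissue was taken 1.5 months later. HD and WT mice thus differed in both the Htt allele and the presence of CasRx, whose effects cannot be told apart. Most HD mice also differed from WT mice in Y-linked counts, as given below.

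Serotonin reaches the striatum in axons of the raphe nuclei, whose cell bodies lie in the brainstem. Receptors of the Htr1 group couple to Gi and Go proteins, lower cyclic AMP and open inwardly rectifying potassium channels. The Htr2 group couples to Gq and phospholipase C, Htr4, Htr6 and Htr7 couple to Gs and raise cyclic AMP, and Htr3a encodes a subunit of a ligand-gated cation channel. Htr1b is known in this tissue as a receptor made by projection neurons and carried to their axon terminals, where it lowers transmitter release.

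The members were matched by Ensembl ID. Htr1a lies on chromosome 13, Htr1b and Htr3a on 9, Htr1d and Htr6 on 4, Htr2a on 14, Htr2c on X, Htr4 on 18 and Htr7 on 19. All 9 passed the filter on low counts, so none was lost from the 19463 genes tested. The raw counts behind each value ran from 632 to 3423 for Htr1b, from 787 to 2586 for Htr2c and from 701 to 1082 for Htr2a. They were lower for Htr1d (135 to 298), Htr1a (91 to 442), Htr6 (122 to 224), Htr7 (74 to 151), Htr4 (28 to 107) and Htr3a (18 to 88), whose values carry more counting error. Htr1b overlaps the antisense gene D430036J16Rik and Htr3a the antisense gene Gm32335. Whether counting used strand is not given in the sources used here, so reads of these pairs cannot be told apart.

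The promoters of the 3 Htr1 members are shown because they share a coupling class and stood on different sides of WT. They come from RefSeq (GRCm38.p6), each as 300 bases from 250 before to 50 after a gene start, 5′ to 3′ on the strand of the gene. Capitals mark the motif matches.
Htr1b, chr9:81633783-81634082, minus strand: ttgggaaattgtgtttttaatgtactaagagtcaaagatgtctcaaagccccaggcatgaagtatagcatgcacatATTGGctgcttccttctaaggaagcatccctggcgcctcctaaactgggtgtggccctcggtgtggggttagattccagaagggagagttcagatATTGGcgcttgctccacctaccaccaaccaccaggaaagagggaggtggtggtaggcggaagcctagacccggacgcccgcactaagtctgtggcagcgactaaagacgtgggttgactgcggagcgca
Htr1a, chr13:105443443-105443742, plus strand: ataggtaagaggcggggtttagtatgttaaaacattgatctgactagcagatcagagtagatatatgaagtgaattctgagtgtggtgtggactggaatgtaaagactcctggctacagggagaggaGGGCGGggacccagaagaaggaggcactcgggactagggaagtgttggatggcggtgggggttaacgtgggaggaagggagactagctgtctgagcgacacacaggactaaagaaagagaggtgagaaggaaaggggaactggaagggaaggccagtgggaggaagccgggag
Htr1d, first of 2 listed starts, chr4:136423274-136423573, plus strand: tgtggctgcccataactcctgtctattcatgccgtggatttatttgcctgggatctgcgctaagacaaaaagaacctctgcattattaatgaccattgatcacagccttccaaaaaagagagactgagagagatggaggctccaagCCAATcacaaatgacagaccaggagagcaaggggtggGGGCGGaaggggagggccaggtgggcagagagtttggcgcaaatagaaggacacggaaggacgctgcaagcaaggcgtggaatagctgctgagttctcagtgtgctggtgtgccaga

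Matches to 5 motifs were searched on both strands. The TATA box was taken as the letters TATAAA. The CCAAT box was taken as those letters. The GC box was taken as GGGCGG. A short site of the cyclic AMP response element was taken as TGACG, and the whole element, which contains the short site, as TGACGTCA. The Htr1b window held CCAAT on the opposite strand at positions 77 and 172, counted from its first base, and no GC box. The Htr1a window held 1 GC box at position 128, and the Htr1d window shown held CCAAT at 147 and a GC box at 184. Over the 32851 mouse promoters of this length, 37.4% held the CCAAT box, 35.7% the GC box, 13.6% the TATA box, 20.8% the short site and 1.79% the whole element. GC content was 53.3% for Htr1b with 11 CpG, 52.3% for Htr1a with 7 CpG and 52.0% for the Htr1d window shown with 7 CpG. The medians over all promoters were 52.7% and 7 CpG. The window of the other listed Htr1d start differed, with 74.3% GC, 28 CpG, 4 GC boxes and no CCAAT box. A promoter was found for 7 of the 9 members, with 9 windows in all. Among the 9 windows none held the TATA box or the whole element, and the short site occurred only in that of Htr7.

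Total counts per library ranged from 27184356 to 32102121. Htt, the targeted gene, had 187 ± 4.81 CPM (counts scaled to a common library size with edgeR's TMM factors) in WT, 145 ± 4.62 in untreated and 136 ± 4.65 in the treated mice (mean ± SD, n = 3). It fell in untreated mice against WT by 0.37 on the log2 scale (SE 0.06, adjusted p = 0.00656), and the treated and untreated mice differed by -0.10 (SE 0.06, adjusted p = 0.942). Every treated mouse (139.7, 130.5 and 136.2 CPM) stood below every untreated mouse (144.7, 140.4 and 149.6 CPM). These groups also did not overlap for 15.8% of all tested genes. The libraries start from the 3′ end of the transcript, which both alleles share, so these counts do not separate the alleles. Y-linked genes were counted in the 3 WT mice and untreated replicate 1 and were at 0 in the other 5 mice. All treated mice thus differed from all WT mice in these genes, so sex and group cannot be told apart in any value of treated against WT mice. In the comparisons with untreated mice they cannot be fully told apart.

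Markers of striatal projection neurons, the main neurons of the tissue, were present in all mice, with Ppp1r1b at 2096 ± 358 CPM in WT. The summed level of the 15 markers in the table ran from 7218 to 9439 CPM in WT, from 2282 to 2707 in untreated and from 3569 to 3624 in the treated mice. Of them, 13 were called lower in untreated mice and 9 in treated mice against WT, beside 2.58% and 1.38% of all tested genes. In bulk tissue, fewer cells of a type and less RNA per cell cannot be told apart. The 8 markers of cortical and hippocampal excitatory neurons summed to 273 to 945 CPM in WT, 1108 to 1298 in untreated and 761 to 832 in the treated mice, with WT replicate 1 at the top of its group. The 12 choroid plexus markers summed to 67.9 to 3902, 39.1 to 195 and 42.6 to 1341 CPM, with WT replicate 1 at the bottom of its group. In untreated against WT mice, 6 of the 8 cortical and hippocampal markers were called higher, beside 5.57% of all tested genes. All 12 choroid plexus markers were called lower there. None of either list was called in treated against WT mice. The 5 markers of raphe serotonin neurons summed to 4.53 to 6.29 CPM over the 9 mice, of which Gata2, a transcription factor gene that other cells also make, gave 3.31 to 4.89 CPM. Tph2 reached at most 1.05 CPM and Gata3 0.747 CPM, and Slc6a4, the serotonin transporter gene, had at most 6 counts.

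Summed levels of the other lists lay at 359 to 488 CPM in WT, 489 to 546 in untreated and 394 to 411 in the treated mice for 10 interneuron markers. These went both ways in untreated against WT mice, with Vip and Cck called higher and Chat and Slc18a3 called lower. The median log2 fold change of the 10 was 0.02 there, and none was called in treated against WT mice. Astrocyte markers summed to 902 to 975, 1026 to 1486 and 1072 to 1415 CPM, and microglia markers to 273 to 304, 318 to 638 and 399 to 469 CPM. Of 6 astrocyte markers only Gfap was called, higher in both HD groups against WT. It had 137 ± 47.3, 357 ± 190 and 361 ± 119 CPM in WT, untreated and treated mice. The median log2 fold change of the 6 was 0.11 in untreated and 0.25 in treated mice against WT. Oligodendrocyte markers summed to 9190 to 10090, 7151 to 7839 and 7575 to 11440 CPM, and endothelial markers to 104 to 126, 146 to 182 and 156 to 167 CPM. Of 6 T cell markers, 5 were called higher and Cd4 lower in both HD groups against WT. Of all tested genes, 5.57% were called higher and 2.58% lower in untreated mice, and 3.84% and 1.38% in treated mice.

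**Figure D1:**
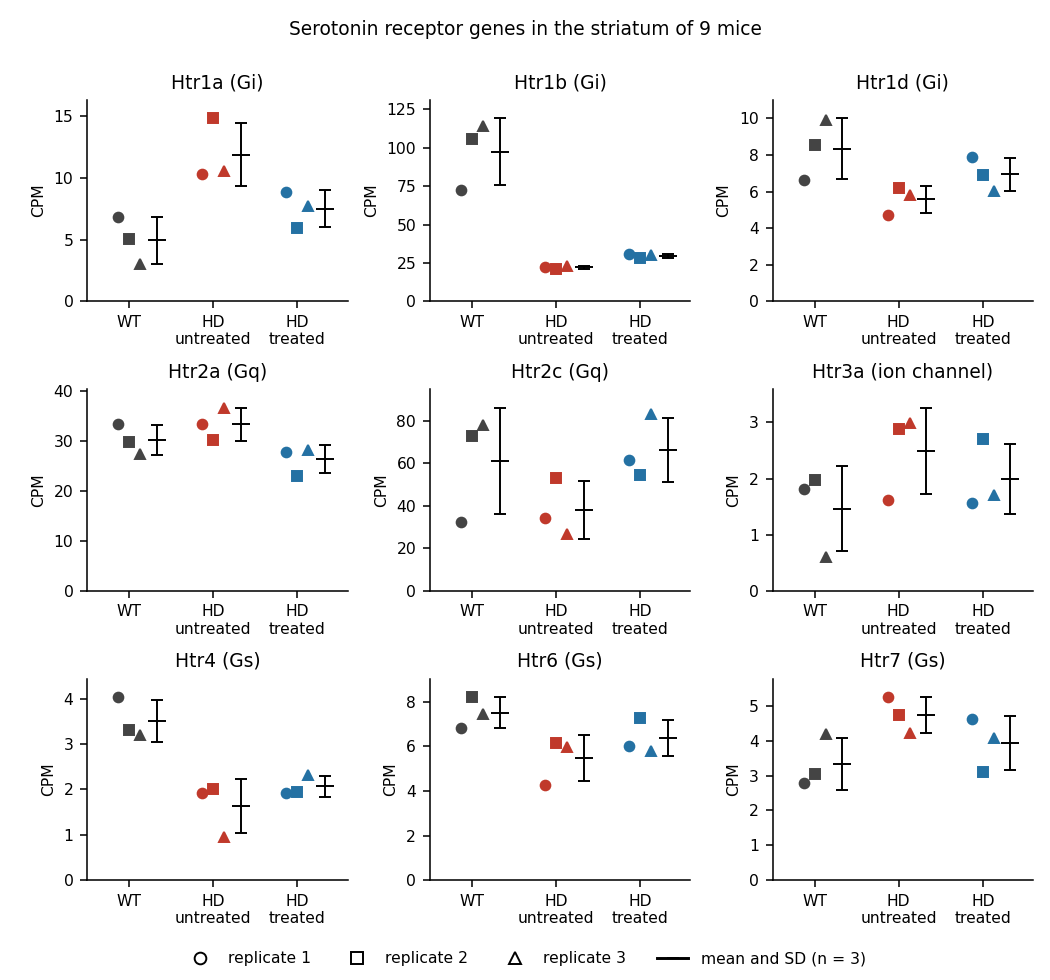
Level of each receptor gene in CPM (vertical axes, each from 0) in WT, untreated HD and treated HD mice. Points are single mice, with the shape giving the replicate number, and bars give the mean and SD of 3 mice. The 6 HD mice sit between 21.2 and 30.6 CPM for Htr1b, below all WT mice, while Htr2a and Htr2c overlap between WT and both HD groups.

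Htr1b, the receptor of projection neuron terminals, showed the widest gap of the family between WT and HD mice. It had 72.6, 106 and 114 CPM in the WT mice, 22.5, 21.2 and 23.0 CPM in the untreated mice and 30.6, 28.0 and 30.1 CPM in the treated mice. The lowest WT mouse, replicate 1, stood above every HD mouse, and every treated mouse stood above every untreated mouse. The group means were 97.3 ± 21.8, 22.2 ± 0.905 and 29.6 ± 1.40 CPM (mean ± SD, n = 3). Untreated mice were 4.38-fold and treated mice 3.29-fold below WT, or -2.13 (SE 0.15) and -1.72 (SE 0.15) as log2 fold changes. These are the differences by which the family was chosen, and they hold no independent support. Leaving out single mice gave -2.31 to -2.0 for untreated and -1.90 to -1.58 for treated mice against WT. With the mean log2 CPM of the cortical list as a covariate, added after the data were seen, the values were -1.57 and -1.35.

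Between treated and untreated mice, Htr1b differed by 0.41 on the log2 scale (SE 0.15, 95% interval 0.08 to 0.74), a 1.33-fold higher level in treated mice. The unadjusted P was 0.0199 and the adjusted p 0.886, so the difference did not pass correction over all genes. It was 0.39 to 0.45 over the fits without 1 mouse, 0.21 with the cortical list as a covariate and 0.29 with the choroid plexus list. The untreated mice in this comparison are those in which the low level of Htr1b was first seen. A gene chosen for low values there can stand higher in other mice by selection alone. The P and interval of Htr1b are therefore descriptions and hold no independent support. The antisense gene D430036J16Rik had 6.90 ± 2.77 CPM in WT, 2.73 ± 0.940 in untreated and 3.72 ± 1.03 in the treated mice. It was called lower in untreated mice (log2 fold change -1.34, SE 0.35, adjusted p = 0.0398) and differed by 0.45 (SE 0.35, adjusted p = 0.987) between treated and untreated mice. Since its reads cannot be told apart from those of Htr1b, these values hold no independent support for the fall of Htr1b.

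The markers of projection neurons moved beside Htr1b. Their median log2 fold change was -1.89 in untreated and -1.16 in treated mice against WT, and 0.60 in treated against untreated mice. The mean of the list on the log2 scale, set against the WT mean, was -1.77, -1.49 and -1.76 in the untreated mice and -1.06, -1.09 and -0.99 in the treated mice. The same measure for Htr1b was -2.08, -2.17 and -2.05 in the untreated and -1.64, -1.77 and -1.66 in the treated mice. Some single markers of the list lay as far below WT as Htr1b, with Penk at 974 ± 205 CPM in WT and 209 ± 43.9 CPM in untreated mice and Adora2a, an adenosine receptor gene, at 283 ± 31.1 and 64.7 ± 9.93 CPM. Others fell less, with Tac1 at 179 ± 31.8 and 92.7 ± 7.12 CPM and Bcl11b at 271 ± 65.8 and 145.5 ± 15.4 CPM in WT and untreated mice. Since Htr1b was chosen for its fall, nothing is read from its distance to the mean of the list. The part of projection neuron number or state in its level was not tested.

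Of 16043 genes with a mean of at least 1 CPM, those with the pattern most like Htr1b over the 9 mice were Scn4b, Gm19531, Penk, Ptprv and Pde10a. Their root mean square difference from it was 0.161, 0.174, 0.191, 0.194 and 0.197 on the log2 scale. Scn4b, a sodium channel beta subunit gene, had 1205 ± 106 CPM in WT, 293 ± 36.4 in untreated and 367 ± 5.23 in the treated mice. Penk, the enkephalin precursor gene, had 317 ± 14.7 CPM in treated mice, and Pde10a, a phosphodiesterase gene, had in WT, untreated and treated mice 1489 ± 196, 361 ± 56.4 and 529 ± 16.1 CPM. Scn4b, Penk and Pde10a are among the projection neuron markers listed above. The ranking was centred on the WT mean, so it follows the fall by which Htr1b was chosen and holds no independent support.

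Htr1a, which acts as autoreceptor on raphe neurons and is made by many cortical and hippocampal neurons, stood on the opposite side of WT. It had 6.80, 5.07 and 3.03 CPM in the WT mice, 10.3, 14.8 and 10.5 CPM in the untreated mice and 8.86, 5.93 and 7.75 CPM in the treated mice. All untreated mice were above all WT mice, whereas treated replicate 2 fell within the WT range. The means were 4.96 ± 1.89, 11.9 ± 2.56 and 7.51 ± 1.48 CPM (n = 3). Untreated mice were 2.40-fold above WT (log2 1.26, SE 0.29) and treated mice 1.52-fold above WT (log2 0.60, SE 0.29). Treated mice differed from untreated mice by -0.66 on the log2 scale (SE 0.28, 95% interval -1.30 to -0.03, adjusted p = 0.889), which did not pass correction from an unadjusted P of 0.0427.

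The cortical and hippocampal marker list lay beside Htr1a in most mice. Set against its WT mean on the log2 scale, the list was at 0.96, -0.21 and -0.75 in the WT mice, 1.57, 1.31 and 1.34 in the untreated mice and 0.90, 0.91 and 0.88 in the treated mice. Htr1a was at 0.52, 0.10 and -0.63, at 1.12, 1.64 and 1.15, and at 0.90, 0.33 and 0.71 in the same mice. The WT mouse with the most of these markers, replicate 1, also had the most Htr1a. Within the HD groups the order differed. Untreated replicate 2 had the least of the list and the most Htr1a. Treated replicate 2 had the most of the list and the least Htr1a, but the list was nearly level in the treated mice, so nothing is read from that order. With that list as a covariate, the difference between untreated and WT mice was 0.54 and no longer met the 2-fold rule, and that between treated and untreated mice was -0.38. The part of tissue composition in the level of Htr1a was not tested further.

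Htr1d, the third Gi-coupled member and also a receptor of axon terminals, differed less between groups. It had 6.61, 8.55 and 9.90 CPM in the WT mice, 4.74, 6.18 and 5.81 CPM in the untreated mice and 7.88, 6.92 and 6.04 CPM in the treated mice. The untreated mice were all below the WT mice, but WT replicate 1 was close to untreated replicate 2, and the treated mice overlapped both groups. The log2 fold change against WT was -0.58 (SE 0.19) in untreated and -0.27 (SE 0.19) in treated mice, and under the cortical list covariate -0.06 and 0.08. Treated and untreated mice differed by 0.32 (SE 0.19, 95% interval -0.11 to 0.74, adjusted p = 0.937).

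**Figure D2:**
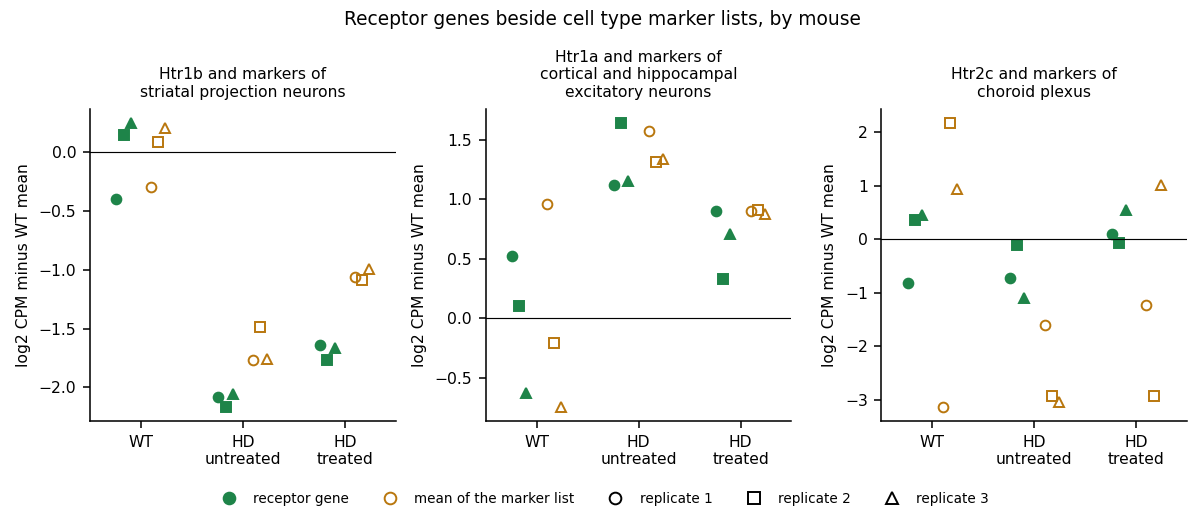
Difference of each mouse from the WT mean on the scale of log2 CPM (vertical axes) for 3 receptor genes (filled) and the mean of a marker list (open), by group and with the replicate number as shape. Htr1b and the projection neuron list both lie below the WT mean in all 6 HD mice, a fall for which Htr1b was chosen, and Htr1a and Htr2c are shown beside the cortical and choroid plexus lists, in which WT replicate 1 stands apart.

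Htr2a, the Gq-coupled receptor of cortical pyramidal neurons and the target of serotonergic hallucinogens, was nearly level. It had 33.4, 29.8 and 27.4 CPM in the WT mice, 33.4, 30.2 and 36.8 CPM in the untreated mice and 27.9, 23.1 and 28.3 CPM in the treated mice. WT overlapped both HD groups, whereas every treated mouse was below every untreated mouse. Against WT the log2 fold change was 0.15 (SE 0.12) in untreated and -0.19 (SE 0.12) in treated mice. Treated mice differed from untreated mice by -0.34 (SE 0.12, 95% interval -0.61 to -0.07, adjusted p = 0.886), a 1.27-fold lower level that did not pass correction from an unadjusted P of 0.0184. Its treated mean was the lowest of the 3 groups.

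Htr2c, the other Gq-coupled member, whose mRNA is abundant in choroid plexus and is edited by adenosine deaminases, varied more between mice of a group than Htr1b and Htr2a, the other members with the highest counts. It had 32.6, 73.1 and 78.3 CPM in the WT mice, 34.5, 53.0 and 26.7 CPM in the untreated mice and 61.5, 54.5 and 83.5 CPM in the treated mice. WT replicate 1 lay among the untreated mice, while the other two WT mice lay above them, and every treated mouse was above every untreated mouse. The means were 61.4 ± 25, 38.1 ± 13.5 and 66.5 ± 15.2 CPM (n = 3). The log2 fold change was -0.69 (SE 0.34) in untreated and 0.12 (SE 0.34) in treated mice against WT.

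Treated mice differed from untreated mice in Htr2c by 0.80 on the log2 scale (SE 0.34, 95% interval 0.04 to 1.57), or 1.75-fold, with an unadjusted P of 0.0407 and an adjusted p of 0.889. Single mice decided which Htr2c differences met the definition of a call. Without WT replicate 1 the difference of untreated from WT mice was -1.0 and met it, and that of treated mice turned to -0.20. Without untreated replicate 2 the values were -1.01 for untreated against WT and 1.12 for treated against untreated mice, and both met it. The adjusted p of treated against untreated mice was 0.482 to 1.0 over the fits without 1 mouse.

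The choroid plexus markers differed widely between WT mice, with Ttr, the transthyretin gene, at 45.3, 3458 and 1076 CPM. In the untreated mice Ttr was at 160, 33 and 21.2 CPM and in the treated mice at 204, 21.9 and 1136 CPM. The part of choroid plexus content in the level of Htr2c was not tested beyond the fits with a covariate. With the choroid plexus list as a covariate, added after the data were seen, the Htr2c differences were -0.095, 0.39 and 0.48 for untreated against WT, treated against WT and treated against untreated mice. With the cortical list they were 0.53, 0.93 and 0.40, so the sign against WT in untreated mice depended on this choice. The genes nearest to Htr2c in pattern were Pld6, Efcab1, Smco4, Chodl and Zfhx3, at root mean square differences of 0.232, 0.252, 0.262, 0.267 and 0.277, further than the nearest genes of Htr1b. None of the 5 is on the choroid plexus list. Set against the WT mean on the log2 scale, that list lay at -3.13, 2.18 and 0.95 in the WT mice, and Htr2c at -0.81, 0.35 and 0.45. The ranking depends on the size of such swings, so nothing is read from this absence.

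Htr3a, the channel subunit, which cortical interneurons are known to make, was near the detection limit. It had 1.81, 1.98 and 0.598 CPM in the WT mice, 1.61, 2.89 and 2.99 CPM in the untreated mice and 1.56, 2.70 and 1.71 CPM in the treated mice. The groups overlapped in all 3 comparisons. The log2 fold change was 0.77 (SE 0.44) in untreated and 0.45 (SE 0.44) in treated mice against WT, and -0.33 (SE 0.43, 95% interval -1.30 to 0.64, adjusted p = 0.995) between treated and untreated mice. Between treated and untreated mice no difference was detectable at this depth. The antisense gene Gm32335 reached at most 6 counts in a library.

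Htr4, a Gs-coupled receptor of projection neurons, had low levels that were lower still in HD mice. It had 4.04, 3.30 and 3.19 CPM in the WT mice, 1.93, 2.02 and 0.951 CPM in the untreated mice and 1.93, 1.94 and 2.33 CPM in the treated mice. All 6 HD mice were below all WT mice, and the 2 HD groups overlapped. Untreated mice were 2.15-fold below WT (log2 -1.10, SE 0.28) and treated mice 1.70-fold (log2 -0.76, SE 0.28). The untreated value was -0.83 without untreated replicate 3 and -0.91 with the Y-linked share as a covariate, both short of 2-fold. Treated and untreated mice differed by 0.34 (SE 0.28, 95% interval -0.30 to 0.98, adjusted p = 0.994).

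Htr6, a Gs-coupled receptor that is enriched in striatum, was less than 2-fold apart between groups. It had 6.84, 8.22 and 7.45 CPM in the WT mice, 4.28, 6.15 and 5.98 CPM in the untreated mice and 6.04, 7.28 and 5.81 CPM in the treated mice. The untreated mice were below the WT mice and the treated mice overlapped both. Its log2 fold change against WT was -0.46 (SE 0.18) in untreated and -0.23 (SE 0.18) in treated mice. Treated and untreated mice differed by 0.22 (SE 0.18, 95% interval -0.18 to 0.62, adjusted p = 0.992).

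Htr7, a Gs-coupled receptor best known from thalamus and hypothalamus, lay on the higher side. It had 2.80, 3.05 and 4.19 CPM in the WT mice, 5.26, 4.74 and 4.21 CPM in the untreated mice and 4.63, 3.10 and 4.07 CPM in the treated mice. The untreated and WT ranges did not overlap, although untreated replicate 3 and WT replicate 3 were almost equal. The log2 fold change was 0.50 (SE 0.22) and 0.23 (SE 0.22) against WT, and -0.27 (SE 0.22, 95% interval -0.76 to 0.22, adjusted p = 0.993) between treated and untreated mice.

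Across the family, the treated mean lay between those of WT and untreated mice for 7 of the 9 members, the exceptions being Htr2a and Htr2c. All 3 comparisons share mice, so this order was not tested. A gene was called where its unadjusted P was under 0.05 and it changed at least 2-fold. In untreated against WT mice, 3 of 9 members were called, Htr1a higher and Htr1b and Htr4 lower, while 8.16% of all tested genes were called (5.57% higher and 2.58% lower). The untreated and WT mice did not overlap for 6 of 9 members, against 30.1% of all genes. In treated against WT mice, 1 of 9 was called, Htr1b, against 5.22% of all genes (3.84% higher and 1.38% lower), and 2 of 9 did not overlap, Htr1b and Htr4, against 28.6%. Since Htr1b was chosen from these contrasts, nothing is read from these counts.

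In treated against untreated mice, none of the 9 members was called by edgeR, and none by DESeq2, against 0.771% of all genes. At an unadjusted P under 0.05 alone there were 4, Htr1b and Htr2c higher and Htr1a and Htr2a lower in treated mice, against 5.5% of all genes. The same 4 did not overlap between the groups, against 15.8% of all genes. Htr1b is among these 4 and was chosen for its fall in HD mice, so nothing is read from these counts for the family. At an adjusted p under 0.05 there were 0 members and 0.0% of all genes. The median log2 fold change of the members was 0.22, beside -0.01 over all tested genes.

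**Figure D3:**
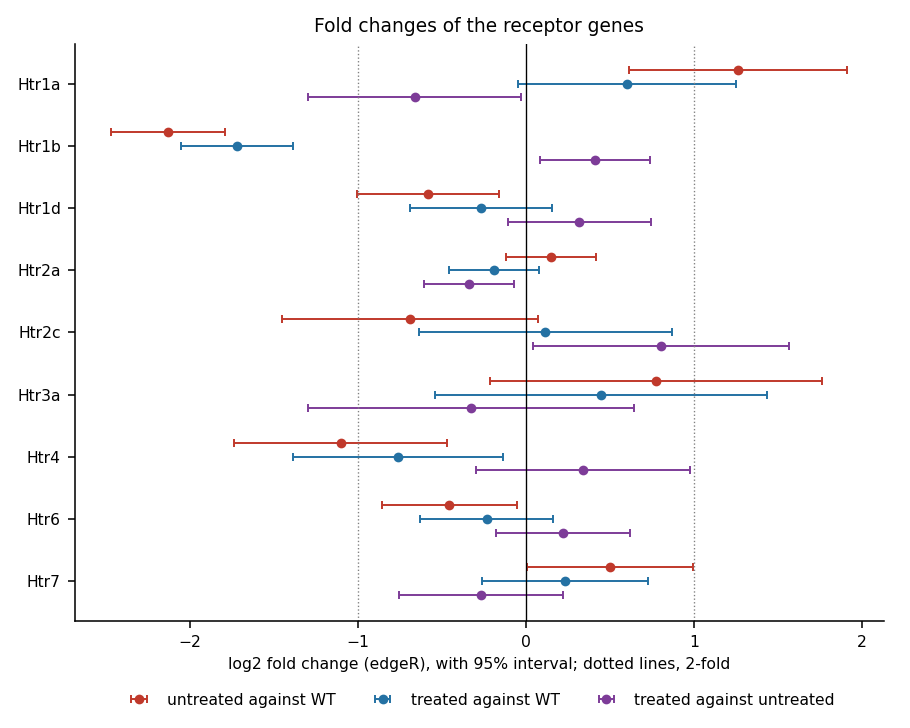
Log2 fold change (horizontal axis, edgeR) of each receptor gene in the 3 comparisons, with 95% intervals and dotted lines at 2-fold. Htr1b lies at -2.13 and -1.72 against WT in untreated and treated mice, and its interval for treated against untreated mice runs from 0.08 to 0.74.

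The remaining serotonin pathway was followed through 42 listed genes, of which 38 passed the filter. In untreated against WT mice, 5 of the 38 were called, against 8.16% of all genes. Kcnj3 and Kcnj6 rose, and Gnal, Adcy5 and Rgs9 fell. At an adjusted p under 0.05 there were 10, against 10.7% of all genes, with Htr5a, Gnas, Kcnj3 and Kcnj6 higher and Gnao1, Gnal, Adcy5, Dlg4, Rgs4 and Rgs9 lower. In treated against WT mice, 2 were called, Adcy5 and Rgs9, both lower, against 5.22% of all genes, and 5 had an adjusted p under 0.05, against 3.69% of all genes. In treated against untreated mice edgeR and DESeq2 called none, against 0.771% of all genes by edgeR, and 7 had an unadjusted P under 0.05, against 5.5%. The median log2 fold change of the 38 was 0.06, 0.01 and -0.04 in the 3 comparisons.

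The 3 other receptors that could be tested were Htr1f, Htr5a and Htr5b. Htr5a, a Gi-coupled receptor, had 12.6, 8.63 and 7.51 CPM in the WT mice, 18.9, 16.6 and 15.9 CPM in the untreated mice and 15.6, 11.3 and 13.4 CPM in the treated mice. It was 1.79-fold higher in untreated mice than in WT (log2 0.84, SE 0.20, adjusted p = 0.0303), with WT replicate 1 nearest to the HD mice. Htr1f, another Gi-coupled receptor, had 1.38 ± 0.470, 2.28 ± 0.779 and 2.09 ± 0.290 CPM in WT, untreated and treated mice (n = 3). Htr5b reached at most 1.36 CPM in any mouse. Without WT replicate 1, Htr5a and Htr1f also met the 2-fold rule in untreated against WT mice, and 7 pathway genes were called. The cortical markers stood apart in the same WT mouse. With that list as a covariate, Htr5a, Htr1f and Htr5b were not called in untreated against WT mice. Htr5b was called lower in treated against WT mice in that fit. The part of these markers in the level of the 3 genes was not tested further.

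Of 10 genes for serotonin synthesis, transport and breakdown, 8 were tested and none was called in any comparison. Tph2, the neuronal enzyme of serotonin synthesis, had at most 33 counts in a library, and Slc6a4 and Fev did not pass the filter. Maoa and Maob, the monoamine oxidase genes, had 25.9 ± 4.65 and 27.9 ± 2.81 CPM in WT, 28.8 ± 3.05 and 23.2 ± 2.67 in untreated and 30.0 ± 2.57 and 26.9 ± 0.786 in the treated mice. Slc29a4, a monoamine transporter gene that choroid plexus is known to make, had 4.08, 23.5 and 9.64 CPM in the WT mice, 3.54, 6.01 and 10.2 in the untreated mice and 6.13, 3.20 and 13 in the treated mice. It was lowest in WT replicate 1 and highest in WT replicate 2 within the WT group, as was Ttr. The treated mice also stood in the same order for both genes, whereas the untreated mice stood in opposite orders. The part of choroid plexus content in the level of Slc29a4 was not tested beyond the fits with a covariate.

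The G proteins and effectors held 4 of the 5 genes called in untreated against WT mice. Adcy5, the main adenylyl cyclase of projection neurons, had 1083, 1666 and 1421 CPM in the WT mice, 393, 481 and 406 CPM in the untreated mice and 611, 596 and 561 CPM in the treated mice. All HD mice were below all WT mice, with treated above untreated mice throughout. It fell by 1.71 on the log2 scale in untreated (SE 0.15, adjusted p = 0.000387) and by 1.24 in treated mice (SE 0.15, adjusted p = 0.00382). Gnal, the Golf subunit that links receptors to this cyclase in striatum, fell by 1.13 in untreated mice (SE 0.13, adjusted p = 0.00148) and was 1.63-fold lower in treated mice (adjusted p = 0.0225). Treated mice differed from untreated mice by 0.47 (SE 0.15, adjusted p = 0.886) for Adcy5 and by 0.43 (SE 0.13, adjusted p = 0.886) for Gnal. Gnal was not called in untreated mice with the cortical or the choroid plexus list as a covariate, nor Adcy5 in treated mice with the cortical list.

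Kcnj3 and Kcnj6, which encode subunits of the potassium channels opened by Gi-coupled receptors, rose in untreated mice by 1.04 (SE 0.25, adjusted p = 0.0302) and 1.03 (SE 0.27, adjusted p = 0.0428) on the log2 scale. Kcnj3 had 64.8, 31.9 and 56.2 CPM in the WT mice, 115, 121 and 80.2 CPM in the untreated mice and 81.9, 62.9 and 66.5 CPM in the treated mice. Neither was called in the fits without WT replicate 2, without untreated replicate 1 or with the cortical or choroid plexus list as a covariate, and 1 of the pair was lost in 3 other fits that left out a mouse. Gnas, the Gs subunit, was 1.31-fold higher in untreated mice (adjusted p = 0.0428), Gnao1, the Go subunit, 1.19-fold lower (adjusted p = 0.0484), and Adcy1, a calmodulin-stimulated cyclase, had 486 ± 173, 703 ± 110 and 546 ± 39.6 CPM in WT, untreated and treated mice.

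Among receptor partners and regulators, Rgs9, a striatum-enriched protein that speeds the shut-off of Gi and Go, had 425, 555 and 549 CPM in the WT mice, 130, 170 and 141 CPM in the untreated mice and 232, 232 and 222 CPM in the treated mice. It fell by 1.79 in untreated (SE 0.13, adjusted p = 0.000226) and by 1.16 in treated mice (SE 0.13, adjusted p = 0.00324). Its difference between treated and untreated mice was 0.64 (SE 0.13, adjusted p = 0.736), with the smallest unadjusted P of the pathway in that comparison, 0.000551. Rgs4, a related regulator, was 1.53-fold and 1.56-fold lower than WT in untreated and treated mice (adjusted p = 0.00235 and 0.00391). Dlg4, a postsynaptic scaffold, was 1.37-fold lower in both (adjusted p = 0.00856 and 0.0148), and Arrb1, a beta-arrestin gene, had 376 ± 40.0, 336 ± 12.4 and 329 ± 5.64 CPM. Rgs9 is also on the projection neuron list, and was not called in treated mice with the cortical list as a covariate.

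**Figure D4:**
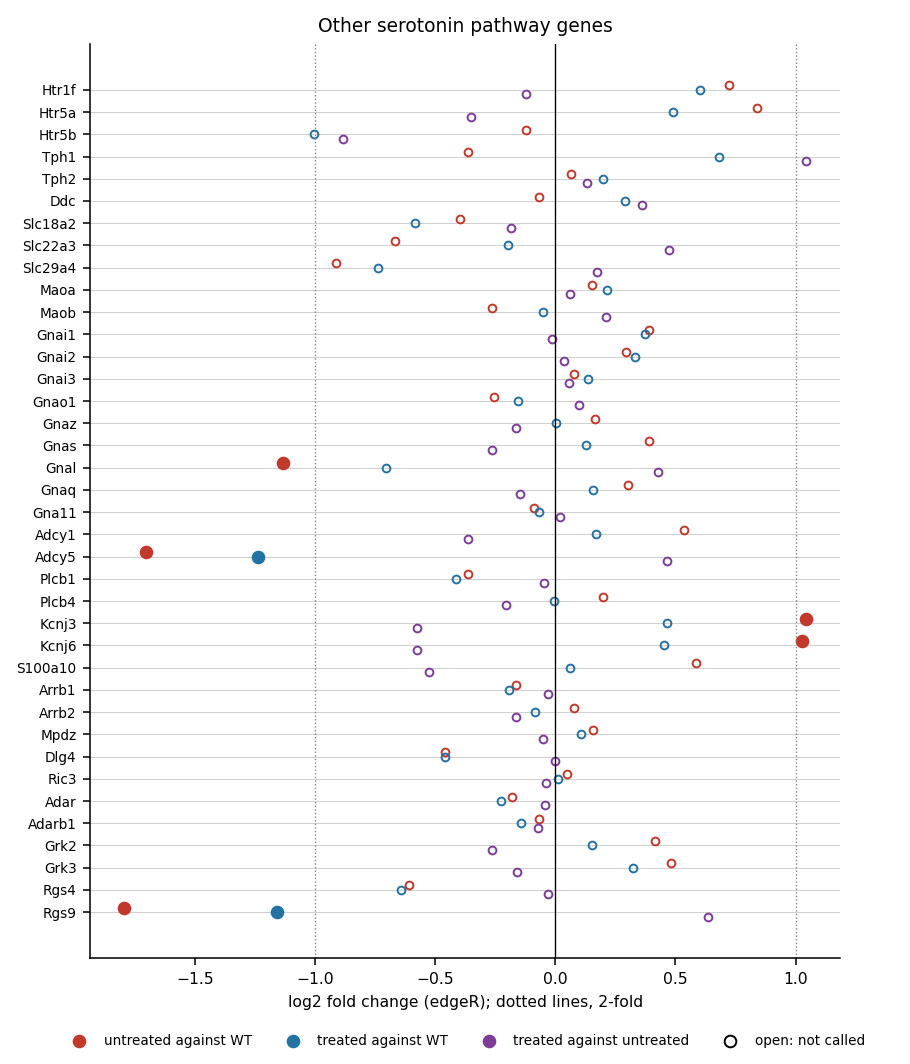
Log2 fold change (horizontal axis, edgeR) of the 38 other serotonin pathway genes in the 3 comparisons, with dotted lines at 2-fold. Filled points were called, namely Kcnj3 and Kcnj6 higher and Gnal, Adcy5 and Rgs9 lower in untreated mice, and Adcy5 and Rgs9 lower in treated mice, each against WT.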

How the data were processed

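Striatal 3′ mRNA libraries of 9 mice (1 per mouse, 3 per group) were made with an oligo-dT primer. The authors deposited raw counts per Ensembl gene, whole numbers without normalization. The paper's methods name STAR for alignment and quantification, whereas the submitters' processing notes name Trimmomatic 0.39, FastQC 0.11.9, HISAT2 2.2.1 and featureCounts 2.0.1. The mouse build, the use of molecular identifiers and the strand setting are not given in the sources used here. Symbols and chromosomes came from GENCODE M21 (94.1% of IDs, 99.8% of counts). Pig counts were not used here.

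Genes were kept by filterByExpr, scaled by TMM and fitted over all 9 mice with glmQLFit and glmQLFTest of edgeR 4.0.16 (R 4.3.3), after tests on simulated data. Adjusted p is Benjamini-Hochberg over all tested genes. Log2 CPM used a prior count of 2. SE is the log2 fold change divided by the root of F. Named genes were all members, pathway genes called at least once with up to 3 others per list by mean CPM, and the 5 genes of nearest pattern. The members, the lists and the rules were chosen with earlier results of these data known. Alternatives were no TMM, DESeq2 1.42.0, other filters, only the compared groups, a replicate block, a Y-linked covariate, P under 0.01, adjusted p under 0.05 and each mouse left out. Within groups the Y-linked covariate varied mainly among the untreated mice, so it cannot separate sex from group between treated and WT mice. Covariates for the cortical and choroid plexus lists were added after the data were seen. Total counts were 27184356 to 32102121, and errors of single mice include counting error. Figures were drawn with matplotlib 3.10.9.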

Additional observations from a re-analysis of the deposited data

How the results depend on the processing

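The replicate numbers do not pair mice, since each number stands for different animals and the deviations of same-numbered mice correlated at -0.081 to 0.24. A replicate block left 3, 1 and 0 members and 5, 2 and 0 other pathway genes called in untreated against WT, treated against WT and treated against untreated mice, the same numbers as without it. With 1 mouse left out, the members called numbered 2 to 4, 1 and 0 to 1 in these comparisons, and the other pathway genes 3 to 7, 2 to 3 and 0 to 1, where the 1 was Tph1 without treated replicate 3. In untreated against WT mice the other pathway genes called were 2 with the cortical list as a covariate, 2 with the choroid plexus list and 10 at an adjusted p under 0.05. In treated against WT mice they were 1 (Htr5b) with the cortical list and 5 at an adjusted p under 0.05. Of 486 alternative values of single-member fold changes, 470 moved by less than the SD between mice (against WT) or kept their side of the definition (treated against untreated), 15 against WT moved further, all with a covariate, and 1 between treated and untreated mice (Htr2c) became called. The cause of these shifts was not tested. No value that was called changed sign in any alternative run. With 3 mice per group, the intervals of Htr1a, Htr2c, Htr3a and Htr4 between treated and untreated mice span more than 1 log2 unit. Counts were low for Htr3a and Htr4, whereas Htr2c had many counts and a wide spread between mice.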
